A study of Mus musculus with 22 samples.

Results

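Slc2a1, Hk2, Ldha, Pgk1, Pfkfb3, Car9, Vegfa and Bnip3 are targets of the hypoxia-inducible factors (HIF). They were followed in 22 colon tumours that the carcinogen azoxymethane had induced in male FVB/N mice, an inbred strain. The 8 genes were taken by name, with no measured value in the rule but with earlier results of these data known, and each had 1 probe set among the 19505 named genes of the Clariom S array, so all 8 are described. Fat supplied 10% of the energy for the 6 control mice and 60% for the 5 obese mice. In addition, 6 obese mice, also at 60%, received sulindac, a non-steroidal anti-inflammatory drug, and 5 formerly obese mice had been changed over from the fatty diet to the lean one. No sulindac was given to the other 3 groups. No group was without azoxymethane, and normal colon was not analysed here. The labels give no dose of sulindac, no ages and no length for any regimen. Each tumour carries a mouse number of its own, apart from a sulindac tumour titled Mouse_X.

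When oxygen is plentiful, prolyl hydroxylases mark the HIF alpha subunits for destruction by the von Hippel-Lindau ubiquitin ligase. When oxygen is short, the alpha subunit persists, pairs with Arnt and binds short DNA elements with the core letters ACGTG or GCGTG. The targets then move cells towards glycolysis, pH control, vessel growth and removal of mitochondria, and in tumours many of them also respond to oncogenes, growth factors and inflammatory signals.

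The deposited values are log2 levels, so a difference of 1 is a doubling if the base is read correctly, and levels of different probe sets cannot be set against each other. The arrays had medians of 6.67 to 6.83, and the correlation between any pair of arrays lay between 0.947 and 0.988. The tissue label was checked against epithelial genes. Epcam lay between 16.67 and 17.43, Cdh1 between 17.29 and 17.92 and Krt8 between 14.84 and 16.86 in the 22 tumours, while Cdx2, an intestinal transcription factor, ranged from 5.92 to 13.64. In such whole tissue, fewer cells of a type and less RNA per cell cannot be told apart.

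RefSeq promoter windows of the build GRCm38.p6, covering 250 bases before and 50 after an annotated start, were matched for all 8 genes, in 11 windows. The letters ACGTG occurred on either strand in at least 1 window of 8 of the 8 genes, and in 21.8% of all 27025 genes of the table. For Vegfa this held only at its downstream annotated start, where the match may lie in coding sequence. GCGTG occurred in 5 of the 8 and in 35.2% of all genes. These shares were not matched for base composition or for windows per gene, so they do not measure enrichment. Before the start, the members' windows held 54.4% (second Ldha window) to 72.4% (Bnip3) G or C. A palindromic CACGTG counts as an ACGTG match on each strand. The stretches before the start are shown for Ldha and Pgk1, a pair of glycolytic enzymes whose levels were correlated in these tumours. That pair was picked from these data, and its correlation did not pass a threshold adjusted over all probe sets. Also shown are Bnip3, a gene with matches of both kinds, and Car9, the gene with a single match close to its start. Capitals mark every ACGTG or GCGTG, or their reverse complements CACGT and CACGC.
Ldha, lactate dehydrogenase A, chr7:46845554-46845803, plus strand: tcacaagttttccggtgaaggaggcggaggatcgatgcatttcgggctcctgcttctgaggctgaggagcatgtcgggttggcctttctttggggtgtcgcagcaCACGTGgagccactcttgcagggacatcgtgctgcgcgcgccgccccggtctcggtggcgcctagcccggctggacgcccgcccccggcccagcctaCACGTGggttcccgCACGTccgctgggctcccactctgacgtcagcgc
Pgk1, phosphoglycerate kinase, chrX:106186850-106187099, plus strand: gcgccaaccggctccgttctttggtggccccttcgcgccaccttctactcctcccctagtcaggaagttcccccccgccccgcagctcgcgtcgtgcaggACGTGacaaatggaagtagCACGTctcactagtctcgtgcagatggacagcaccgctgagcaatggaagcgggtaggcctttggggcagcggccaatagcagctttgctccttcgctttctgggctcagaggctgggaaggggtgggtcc
Bnip3, a mitophagy receptor, chr7:138909507-138909756, minus strand: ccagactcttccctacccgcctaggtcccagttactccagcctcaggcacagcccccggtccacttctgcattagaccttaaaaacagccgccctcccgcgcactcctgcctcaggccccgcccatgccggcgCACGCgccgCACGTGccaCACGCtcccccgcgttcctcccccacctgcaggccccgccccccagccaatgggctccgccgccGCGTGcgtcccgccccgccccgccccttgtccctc
Car9, carbonic anhydrase 9, chr4:43506776-43507025, plus strand: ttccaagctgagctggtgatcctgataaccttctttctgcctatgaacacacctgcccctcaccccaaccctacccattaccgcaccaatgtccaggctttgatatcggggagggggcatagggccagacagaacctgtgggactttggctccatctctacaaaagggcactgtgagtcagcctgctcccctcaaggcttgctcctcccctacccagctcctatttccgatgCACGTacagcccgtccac
The Ldha stretch held 5 ACGTG matches in 3 places, the nearest 34 bases before the start, and its CACGTG palindromes make up 4 of them. Pgk1 had 2 matches, the farther of them 150 bases before the start. Bnip3 had 2 ACGTG and 3 GCGTG matches, and Car9 had 1 ACGTG match 18 bases before its start. Of the others, Hk2 had 2 ACGTG matches, and Slc2a1 had 1 of each kind. Pfkfb3 had matches in both of its windows, and Vegfa only in 1 of its 2. The upstream Vegfa window held 0 ACGTG and 0 GCGTG matches. The downstream Vegfa window held 1 of each, and it lies past the upstream start on the minus strand. It may therefore cover transcribed or coding sequence, and whether it acts as a promoter was not tested. The letters around both of its matches can be read as codons with no stop. The count of 8 of the 8 genes thus rests, for Vegfa, on letters that may be coding rather than promoter sequence. The second Ldha window, not shown, held 0 ACGTG and 2 GCGTG matches. These matches are letters in a window and say nothing of binding in these tumours.

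Slc2a1 encodes the glucose transporter GLUT1, through which glucose enters most cells. Its level ran from 14.03 to 15.74 with a median of 14.48 in control tumours, and the obese tumours were at 14.37, 14.65, 14.68, 15.13 and 15.14. With sulindac it ran from 14.31 to 15.26 (median 14.605), and the formerly obese tumours were at 14.60, 14.74, 14.76, 15.47 and 15.58. The 4 ranges overlapped, and control Mouse_30 was the highest of the 22 tumours.

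Hk2, hexokinase 2, traps glucose in the cell as glucose 6-phosphate. Control tumours ran from 7.33 to 10.79 with a median of 8.89, and the obese tumours were at 8.82, 8.86, 9.72, 9.94 and 10.63. Sulindac tumours ran from 8.20 to 10.84 (median 9.455), and formerly obese tumours were at 8.83, 9.73, 10.06, 10.37 and 10.42. The control group alone spanned 3.46 log2 units, from Mouse_26 to Mouse_30, so it covered every obese and every formerly obese tumour.

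Pfkfb3 makes fructose 2,6-bisphosphate, the main activator of phosphofructokinase. The control tumours ran from 8.92 to 11.12 with a median of 9.70, and the obese tumours were at 10.13, 10.40, 10.66, 10.71 and 11.04. Sulindac tumours ran from 9.88 to 11.76 (median 10.625), and the formerly obese tumours were at 9.67, 9.82, 10.24, 10.29 and 11.14. Apart from Mouse_30, at 11.12, each control tumour was below each obese tumour.

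Pgk1, which yields ATP in the later steps of glycolysis, and Ldha, which turns pyruvate into lactate, had the smallest SDs of the 8 genes within regimens. Pgk1 ran from 15.03 to 15.92 (median 15.195) in control tumours and was at 15.23, 15.26, 15.33, 15.35 and 15.45 in obese tumours. It ran from 14.63 to 15.45 (median 15.075) with sulindac, and it was at 14.61, 15.06, 15.06, 15.39 and 16.15 in formerly obese tumours, the last of which, Mouse_152, was the highest of the 22. Ldha ran from 15.60 to 16.54 (median 16.085) in control tumours and from 15.56 to 16.33 (median 16.08) with sulindac. It was at 15.99, 16.05, 16.12, 16.34 and 16.36 in obese tumours and at 15.88, 15.96, 16, 16.12 and 16.28 in formerly obese tumours. The 5 obese tumours lay within 0.22 log2 units of each other for Pgk1 and within 0.37 for Ldha.

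Car9 encodes a cell-surface carbonic anhydrase that helps tumour cells export acid. It ran from 5.40 to 8.28 (median 6.255) in control tumours and was at 5.61, 5.75, 6.27, 7.04 and 7.62 in obese tumours. It ran from 5.48 to 6.97 (median 6.475) with sulindac and was at 6.01, 6.38, 6.57, 6.86 and 8.35 in formerly obese tumours. Its level reached 6 on 17 of the 22 arrays, against 22 of 22 for the other 7 genes, so it is the dimmest probe set of the 8, near the array medians. Control Mouse_20 and formerly obese Mouse_152 stood at the top.

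Vegfa encodes the main growth factor of vessels. It ran from 10.97 to 11.85 (median 11.09) in control tumours, and the obese tumours were at 10.90, 11.29, 11.43, 11.43 and 12.60. It ran from 10.44 to 11.60 (median 10.83) with sulindac, and the formerly obese tumours were at 10.59, 10.80, 10.84, 11.83 and 12.51. Of the 6 sulindac tumours, 3 were below every obese tumour, and obese Mouse_96 and formerly obese Mouse_140 were the highest of all.

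Bnip3 encodes a protein of the outer mitochondrial membrane that recruits mitochondria to autophagosomes. It ran from 9.89 to 11.65 (median 10.775) in control tumours and was at 10.07, 10.52, 11.16, 11.52 and 12.17 in obese tumours. It ran from 9.06 to 11.59 (median 10.395) with sulindac and was at 10.43, 10.71, 10.82, 11.01 and 11.59 in formerly obese tumours. Outside the controls, the 3 lowest tumours had received sulindac, Mouse_125, Mouse_129 and Mouse_124, while sulindac Mouse_114 reached 11.59.

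**Figure D1:**
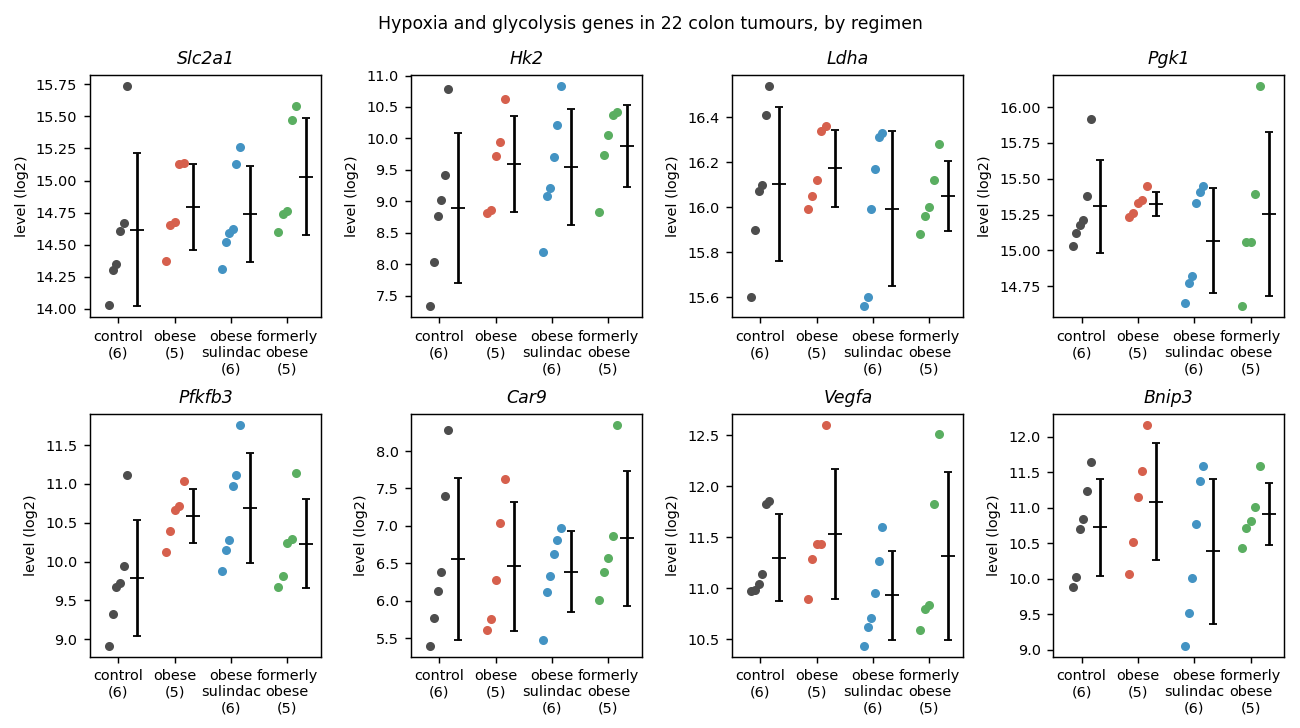
Level (log2) of each of the 8 genes in every tumour, by regimen, with the number of tumours in brackets; points are tumours and the bar beside them is the mean with 1 SD. The groups overlap in each panel; control Mouse_30 is the top control point for Slc2a1 (15.74), Hk2 (10.79), Ldha (16.54), Pgk1 (15.92) and Pfkfb3 (11.12).

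The obese and control tumours ask how tumours that grow under a high-fat diet differ. Pfkfb3 was 0.80 ± 0.36 higher in the obese tumours (log2 difference ± standard error; 10.59 ± 0.34, SD, n = 5, against 9.78 ± 0.75, n = 6), with a 95% interval of 0.06 to 1.55. Every obese tumour was above the control mean, but the difference did not pass the threshold over all probe sets (limma, unadjusted p = 0.0352, Benjamini-Hochberg adjusted p = 0.9998). A two-sided exact permutation test of the 5 and 6 tumours gave p = 0.0606, where the smallest p the design allows is 0.00216. Without control Mouse_30 the difference was 1.07, and without control Mouse_20 it was 0.63. Hk2 was 0.70 ± 0.52 higher (8.89 ± 1.19 in control, 9.59 ± 0.77 in obese tumours), and it ranged from 0.39 without control Mouse_26 to 1.08 without control Mouse_30.

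The remaining members differed less. Bnip3 was 0.36 ± 0.44 higher, Vegfa 0.23 ± 0.33, Slc2a1 0.18 ± 0.27, Ldha 0.07 ± 0.17 and Pgk1 0.02 ± 0.22, and Car9 differed by -0.10 ± 0.49. The 95% intervals reached 1.28 for Bnip3 and 0.91 for Car9, while those of Ldha and Pgk1 ended at 0.43 and 0.48. Without obese Mouse_113 the Bnip3 difference was 0.091. In all, 0 of 8 members passed the adjusted threshold, where 0% of the 22203 probe sets did. At an unadjusted p under 0.05, 1 member passed beside 4.03% of all probe sets (894). Of the 8 differences 7 were above 0, with a median of 0.20 beside -0.0043 over all probe sets, but 4 of the 8 signs turned when single mice were left out. Markers of several cell types differed in mean as well, with 0 passing the adjusted threshold in any list. All 6 neutrophil markers had higher means in obese tumours (median 1.05). Their list mean, the mean log2 level of the list's genes in a tumour, was 5.47 to 8.26 in control and 6.91 to 9.34 in obese tumours. The 5 macrophage markers were also higher (median 0.57, list means of 9.71 to 11.22 against 10.67 to 11.33), and so were the 6 fibroblast markers (median 0.22). The 7 markers of absorptive colonocytes were all lower (median -0.86, list means of 7.80 to 11.84 in control and 7.35 to 10.67 in obese tumours), and 8 of 9 epithelial markers were lower (median -0.32). The part of these cell types in the Pfkfb3 and Hk2 differences was not tested.

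The formerly obese against the obese tumours ask what the switch back to a low-fat diet does. Here Car9 was 0.38 ± 0.51 higher, Hk2 0.29 ± 0.54 and Slc2a1 0.24 ± 0.28. Pfkfb3 differed by -0.36 ± 0.37, Vegfa by -0.22 ± 0.35, Bnip3 by -0.18 ± 0.46, Ldha by -0.12 ± 0.18 and Pgk1 by -0.07 ± 0.23. The adjusted p lay between 0.934 and 0.981 for the 8 members (limma). None passed, beside 0% of all probe sets, and 0 members had an unadjusted p under 0.05, where 5.69% of all probe sets did. The 95% interval of the Pfkfb3 difference, -1.13 to 0.42, holds the size of the difference between obese and control tumours with its sign turned. Leaving out single mice turned 4 of the 8 signs. The median difference of the members was -0.10, beside 0.0040 over all probe sets.

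The sulindac-treated against the untreated obese tumours ask what the drug does to the same genes. The largest differences were those of Bnip3 and Vegfa. Bnip3 was at 10.39 ± 1.02 with sulindac (n = 6) and at 11.09 ± 0.82 without (n = 5), a difference of -0.70 ± 0.44 with a 95% interval of -1.62 to 0.22 (limma adjusted p = 0.836, exact permutation p = 0.251). It was -0.43 without obese Mouse_113 and -0.95 without obese Mouse_107. Vegfa was at 10.93 ± 0.44 and 11.53 ± 0.64, a difference of -0.60 ± 0.33 with an interval of -1.29 to 0.10 (limma adjusted p = 0.808, exact permutation p = 0.0866). It was -0.33 without obese Mouse_96 and -0.76 without obese Mouse_109. Pgk1 differed by -0.26 ± 0.22 and Ldha by -0.18 ± 0.17. Car9 at -0.07 ± 0.49, Slc2a1 at -0.06 ± 0.27 and Hk2 at -0.05 ± 0.52 had means that nearly coincided with wide intervals, and Pfkfb3 was 0.11 ± 0.36 higher. No member passed, beside 0% of all probe sets, and 0 had an unadjusted p under 0.05 beside 6.55% of all. Of the 8 differences 7 were below 0 (median -0.13, beside 0.0093 over all probe sets), and 4 signs turned on leaving out single mice.

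**Figure D2:**
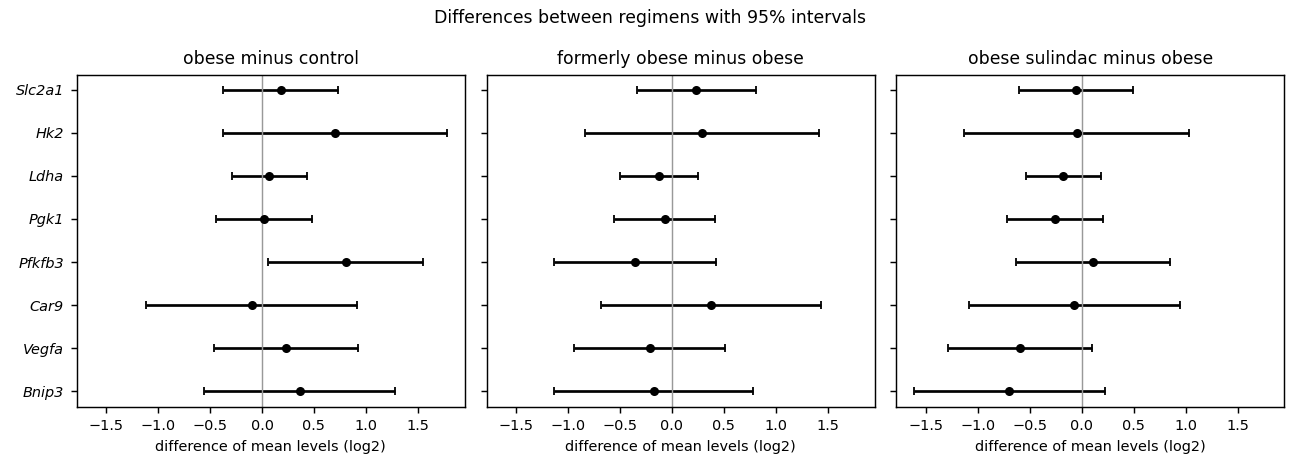
Difference of mean levels (log2) for the 8 genes in the 3 main comparisons; points are differences from the fit to all 22 arrays and bars are 95% intervals. The intervals span 0 except that of Pfkfb3 in obese against control tumours (0.06 to 1.55), which did not pass the adjusted threshold.

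The other pairs of regimens gave 0 passing members as well, each beside 0% of all probe sets. In sulindac against control tumours Pfkfb3 was 0.91 ± 0.34 higher (interval 0.20 to 1.62, limma adjusted p = 0.700, exact permutation p = 0.0563). All 6 sulindac tumours were above the control mean, and it was the 1 member with an unadjusted p under 0.05, beside 6.63% of all probe sets. The difference was 0.70 without sulindac Mouse_114 and 1.18 without control Mouse_30. In formerly obese against control tumours Hk2 was 0.99 ± 0.52 higher (interval -0.09 to 2.07, adjusted p = 0.911), and 0 members passed unadjusted beside 5.54% of all probe sets. In formerly obese against sulindac tumours the members differed by -0.46 (Pfkfb3) to 0.52 (Bnip3), and 0 passed unadjusted beside 6.62%. These comparisons reuse the same control, obese, sulindac and formerly obese arrays, so they are not independent of each other. An F test over the 4 groups passed for 0 members and 0% of all probe sets, with the smallest member p for Pfkfb3 (0.0629 unadjusted, 0.829 adjusted). For each of the 8 genes, then, no pair of neighbours in the order of the 4 group means differed beyond their spread by these tests.

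The genes around the members were read in lists. In obese against control tumours, 12 of 22 measured glycolysis genes were higher and 10 lower, and 0 passed the adjusted threshold. Aldoc, an aldolase, differed by 0.88 ± 0.49 (0.48 without obese Mouse_113), and Pklr, the pyruvate kinase of liver and gut, by -0.72 ± 0.30. Of 16 genes of the HIF machinery 7 were higher, by up to 0.80, and the smallest unadjusted p was that of Hif1a, the oxygen-regulated subunit itself, at 0.45 ± 0.21 (14.11 ± 0.42 in control, 14.56 ± 0.36 in obese tumours, unadjusted p = 0.0422, adjusted p = 0.9998, limma). Of 28 other HIF targets 17 were higher (median 0.10), and Pdk1, which keeps pyruvate out of mitochondria, differed by -0.41 ± 0.27. Of 8 genes of lactate and proton handling 5 were higher, among them the bicarbonate transporter Slc4a4 at 0.80 ± 0.45. Of 11 genes of the VEGF axis 9 were higher, with Pgf, placental growth factor, at 1.04 ± 0.48. Of 4 mitophagy receptors 2 were higher, and Fundc1 differed by 0.56 ± 0.24. None of these genes passed the adjusted threshold.

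In formerly obese against obese tumours, 2 of the 11 VEGF axis genes were higher and 9 lower (median -0.25). Pgf was at 6.08 ± 0.70 against 7.91 ± 0.76, a difference of -1.83 ± 0.51 (limma unadjusted p = 0.00157, adjusted p = 0.866), Vegfb differed by -0.97 ± 0.32 and the receptor Flt1 by -0.87 ± 0.41, which was -0.46 without obese Mouse_96. Of the 28 other HIF targets 19 were lower, including the collagen crosslinker Lox at -1.57 ± 0.64 and Angptl4, an inhibitor of lipoprotein lipase, at -0.60 ± 0.26. Of 22 glycolysis genes 14 were lower (median -0.13) and Pfkfb4 differed by 0.63 ± 0.37. The machinery split into 7 higher and 9 lower, with Arnt at -0.27 ± 0.13. The lactate list split into 4 and 4, with Car14 at 0.56 ± 0.17, and all 4 mitophagy receptors were lower (median -0.25), Bnip3l by -0.28 ± 0.18. Car14 was dim, with means of 5.05 in formerly obese and 4.49 in obese tumours. The 8 endothelial markers were all lower too, by a median of -0.42, with list means of 7.37 to 8.49 in obese and 6.97 to 8.45 in formerly obese tumours. The 6 fibroblast markers were all lower (median -0.61, list means of 11.64 to 12.58 in obese and 10.52 to 12.48 in formerly obese tumours), as were the 6 neutrophil (median -0.95) and 5 macrophage markers (median -0.42). All 7 markers of absorptive colonocytes were higher (median 1.86, list means of 7.35 to 10.67 against 9.16 to 13.82), and 0 markers passed in any list. The part of these cell types in the differences of the VEGF axis and of Lox was not tested.

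In sulindac against untreated obese tumours, 20 of the 28 other HIF targets were lower (median -0.17). Angptl4 differed by -0.88 ± 0.25, and the collagen prolyl hydroxylases P4ha1 and P4ha2 differed by -0.77 ± 0.30 and -1.10 ± 0.45. Glycolysis split into 11 higher and 11 lower, with Pgam1 at -0.40 ± 0.19, Aldoa at -0.29 ± 0.16 and Tpi1 at -0.28 ± 0.17. In the VEGF axis 8 of 11 were higher, but Pgf differed by -1.65 ± 0.48 (unadjusted p = 0.00259, adjusted p = 0.588) and Flt1 by -0.996 ± 0.39. Flt1 was -0.59 without obese Mouse_96. Of the lactate list 7 of 8 were lower, among them Bsg, the chaperone of the lactate transporters, at -0.36 ± 0.13. The machinery held 9 higher and 7 lower genes, with Vhl at 0.34 ± 0.18, and 3 of 4 mitophagy receptors were lower. All 7 markers of absorptive colonocytes were higher (median 1.03, list means of 7.35 to 10.67 without and 9.18 to 11.64 with sulindac), as were 5 of 5 of smooth muscle (median 0.49) and 4 of 4 of proliferation (median 0.40). The 4 markers of red blood cells were all lower (median -0.18), 0 markers passed in any list, and their part in these differences was not tested. All 3 comparisons use the same 5 obese arrays, so a high value in those arrays, as for Pgf, enters each of them. Among 18 genes named in every comparison (Hif1a, Epas1, Arnt, Vhl, Egln1, Egln3, Pdk1, Adm, Slc16a1, Slc16a3, Slc2a3, Hk1, Gapdh, Pkm, Aldoa, Tpi1, Kdr and Flt1), 0 passed in any of the 3. Their differences ran from -0.41 (Pdk1) to 0.46 (Flt1, 0.048 without obese Mouse_96) in obese against control tumours, from -0.87 (Flt1) to 0.21 (Slc16a3) in formerly obese against obese tumours and from -0.996 (Flt1) to 0.34 (Vhl) with sulindac.

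Most of the variation of the 8 genes lay between tumours on the same regimen. The share of variance between the 4 groups was 29.5% for Pfkfb3, 16.1% for Hk2, 14.4% for Vegfa, 11.8% for Bnip3, 11.4% for Slc2a1, 8.62% for Pgk1, 6.47% for Ldha and 4.29% for Car9, beside 13.9% of the summed variance of all probe sets. The SD between tumours within regimens was 0.93 for Hk2, 0.87 for Car9 and 0.78 for Bnip3, larger than in 94.2%, 93.0% and 91.2% of all probe sets. Pfkfb3 (0.63), Vegfa (0.59) and Slc2a1 (0.46) exceeded 86.1%, 83.7% and 72.2%. Pgk1 (0.38) and Ldha (0.28) exceeded 57.3% and 26.4%. Control Mouse_30 was above its group mean for 8 of the 8 genes, by 0.91 on average, and highest of its group for 5. Sulindac Mouse_114 was also highest of its group for 5, and sulindac Mouse_X and obese Mouse_113 were lowest for 4, although Mouse_113 held the highest Bnip3 of the series (12.17).

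To see which of the genes went together from tumour to tumour, levels were correlated over the 22 tumours after the regimen means had been removed. Of the 28 pairs, 23 had a positive r and 5 a negative one, with a median of 0.31 and a range from -0.44 (Hk2 with Bnip3) to 0.65 (Pgk1 with Pfkfb3). An unadjusted permutation p under 0.05 (100000 shuffles within regimens) was reached by 11 pairs. Each gene was also fitted against all other probe sets with limma, which is where p-values were adjusted. Of all probe sets, 46.9% (Pfkfb3) to 52.3% (Bnip3) had a positive r with a member. An unadjusted p under 0.05 in this fit was reached by 6.44% (Slc2a1) to 16.5% (Hk2) of them. Beside these, 1 (Vegfa, Bnip3) to 5 (Hk2) of the 7 other members reached it. The smallest adjusted p of any pair in the limma fit was 0.148 (Pgk1 with Car9), so 0 of the 7 other members passed for any of the 8.

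The glycolytic genes formed most of the higher correlations. For Ldha with Pgk1 r was 0.61 (rho 0.56, permutation p = 0.00268, adjusted p = 0.246 in the limma fit) and 0.58 without the 2 tumours farthest from the Ldha median. Their promoter letters are shown above, but all 8 genes held ACGTG in a window, Vegfa only in its downstream one, which may be coding. Only 0.374% of all probe sets had a higher r with Ldha, and 1.16% with Pgk1. For Pgk1 with Pfkfb3 r was 0.65 (rho 0.51, permutation p = 0.00467, adjusted p = 0.158), but 0.37 without the 2 farthest tumours, Mouse_152 and Mouse_30. Ldha with Pfkfb3 reached 0.56 (rho 0.50, permutation p = 0.0250, adjusted p = 0.503) and 0.62 without the 2 farthest. Slc2a1 was correlated with Pfkfb3 (0.58, rho 0.58, permutation p = 0.0193, adjusted p = 0.432), Hk2 (0.53, rho 0.61, permutation p = 0.0316, adjusted p = 0.170) and Ldha (0.52, rho 0.51, permutation p = 0.0293, adjusted p = 0.664). Without the 2 farthest tumours, control Mouse_30 and formerly obese Mouse_134, these became 0.53, 0.24 and 0.37. Without control Mouse_30 alone they were 0.35, 0.29 and 0.37. The values with Hk2 and Ldha were thus lower both times. That with Pfkfb3 was lower without Mouse_30 alone, but changed little without both tumours. Hk2 with Pgk1 was at 0.50 (rho 0.53, permutation p = 0.0205, adjusted p = 0.230).

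Car9, Vegfa and Bnip3 followed different members. Car9 was correlated with Pgk1 (0.57, rho 0.49, permutation p = 0.0114, adjusted p = 0.148), which became 0.32 without the 2 farthest tumours, and with Hk2 (0.51, rho 0.59, permutation p = 0.0305, adjusted p = 0.167), which was 0.47 without them. Its r with Slc2a1 was 0.05. Vegfa was correlated with Slc2a1 (0.56, rho 0.42, permutation p = 0.00802, adjusted p = 0.344) and with Bnip3 (0.43, rho 0.48, permutation p = 0.0398, adjusted p = 0.386). The 5 negative values all involve Vegfa or Bnip3 with Hk2, Pgk1 or Car9: Hk2 with Bnip3 at -0.44, Car9 with Bnip3 at -0.34, Car9 with Vegfa at -0.33, Pgk1 with Vegfa at -0.18 and Hk2 with Vegfa at -0.12, each with a permutation p above 0.05.

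**Figure D3:**
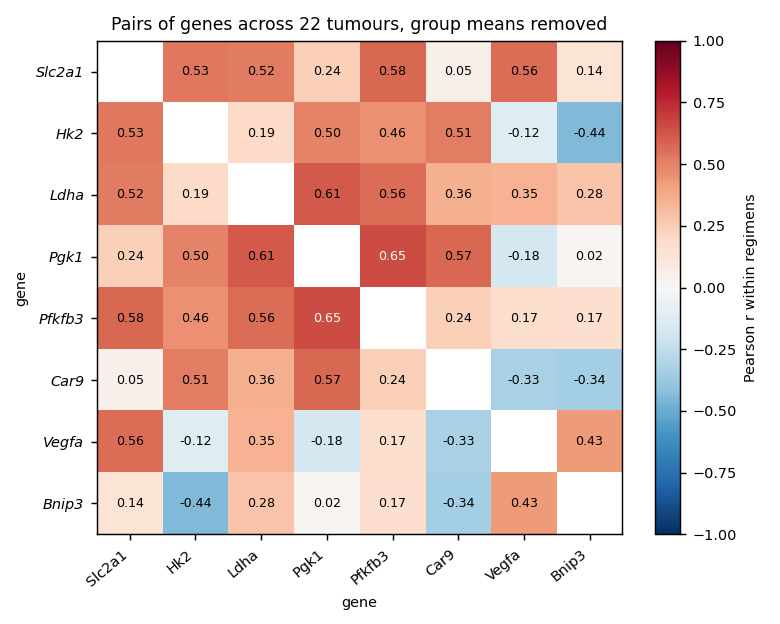
Pearson r of each pair of the 8 genes over 22 tumours after removal of the regimen means (colour scale from -1 to 1). Slc2a1, Hk2, Ldha, Pgk1 and Pfkfb3 are all positive with each other, up to 0.65, and Bnip3 with Hk2 is the lowest at -0.44.

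The genes of the whole array nearest to each member differed from member to member. For Slc2a1, 2 of 22202 probe sets passed the adjusted threshold (0.00901%). They were Plaur, the receptor of urokinase (r = 0.93, limma adjusted p = 3.09e-05), and Fosl1, a subunit of the AP-1 transcription factor (r = 0.83, adjusted p = 0.0276). The r with Plaur stayed at 0.91 without the 2 farthest tumours, and Plaur passed in 22 of 22 fits with a mouse left out. Fosl1 passed in 14 of 22 and failed, for example, without formerly obese Mouse_140 or sulindac Mouse_X, and its adjusted p was 0.144 in an ordinary linear model without moderation of variances. Next came Sprr1a (0.81, adjusted p = 0.05004, just above the threshold), Dusp5 (0.79) and Prol1 (0.79), and Pip4p1 (-0.81), Ebpl (-0.74) and Crebl2 (-0.73) were at the other end. Prol1 was dim, at 4.55 to 6.30.

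For Hk2, 666 probe sets passed (3%), 434 positive and 232 negative, the highest count of the 8 members in this fit. The order turned without control Mouse_26, where 173 passed for Hk2 and 402 for Car9. Nearest were the homeobox gene Hesx1 (r = 0.92), tyrosine aminotransferase Tat (0.90), the palmitoyltransferase Zdhhc13 (0.90) and the ubiquitin ligases Trim15 (0.89) and Trim31 (0.89), with limma adjusted p between 0.000164 and 0.000759. Hesx1 was dim, at 4.06 to 5.95, below the array medians in every tumour. The lowest were AW146154 (-0.85), Pcmtd2 (-0.83) and Iqsec1 (-0.83). Among the pathway genes that passed with Hk2 were Pfkp, the platelet phosphofructokinase (0.80, adjusted p = 0.00289), the lactate transporter Slc16a1 (0.77, adjusted p = 0.00663), the HIF prolyl hydroxylase Egln3 (0.73, adjusted p = 0.0140) and the disulfide-forming oxidase Ero1a (0.67, adjusted p = 0.0374). Each was the highest of its list. In all, 2 of 22 glycolysis, 1 of 8 lactate, 1 of 16 HIF machinery and 1 of 28 other HIF target genes passed, beside 3% of all probe sets. The share of other HIF targets is thus near that of all probe sets. A positive r was found for 17 of 22, 7 of 8, 6 of 16 and 15 of 28 of these, beside 47.9% of all probe sets. In the VEGF axis 1 of 11 and among mitophagy receptors 1 of 4 were positive, and 0 passed. Mouse_26 is the tumour with the lowest Hk2, and the count was also lower without sulindac Mouse_124 (392) and without control Mouse_30 (439). An ordinary linear model, without limma's moderation of variances, gave 372 on levels and 232 on ranks.

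Car9 had 160 passing probe sets (0.721%), 81 positive and 79 negative. Prex1, an activator of Rac, came nearest (0.83, adjusted p = 0.0145), followed by Acacb (0.81), Clcn2 (0.81), Pgap6 (0.81) and Abhd17c (0.81). Acacb was dim, at 4.57 to 6.68. The nucleolar GTPase gene Gnl3l (-0.88), the autophagy gene Gabarapl1 (-0.87) and Klhdc2 (-0.84) were the lowest, the first 2 with an adjusted p of 0.00864. The count moved by over 1.5 times in 16 of the 22 fits with a mouse left out, from 17 probe sets without obese Mouse_113 to 402 without control Mouse_26. Acacb and Klhdc2 missed the threshold without formerly obese Mouse_152 and Pgap6 without obese Mouse_113, while Abhd17c passed in 12 of 22 fits. The ordinary linear model gave 22 probe sets for Car9 on levels and 367 on ranks.

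Vegfa had 20 passing probe sets (0.0901%), 5 positive and 15 negative. The Paneth cell defensins Defa17 and Defa3, whose probe sets hold identical values and cannot be separated, had r = -0.85 (adjusted p = 0.00396), and Defa30 had -0.85. Defa17 ran from 5.46 to 13.95 between tumours, and leaving out the 2 farthest tumours moved r to -0.92. The highest were Fam160b1 (0.82, adjusted p = 0.0424), Klf13 (0.81), Bcr (0.80), Mier2 (0.80) and Dusp4 (0.79). Each of these 5 missed the threshold without formerly obese Mouse_140, without formerly obese Mouse_150 and without sulindac Mouse_114. Without control Mouse_30 the count was 63, without formerly obese Mouse_150 it was 13 and without sulindac Mouse_114 it was 12.

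For Ldha, Pgk1, Pfkfb3 and Bnip3, 0% of the probe sets passed, so the nearest genes are given as descriptions. At an unadjusted p under 0.05 there were 1555 (7%), 2695 (12.1%), 1787 (8.05%) and 2946 (13.3%) of 22202 probe sets. Ldha lay nearest Sec61b (0.75), Bcl2l13 (0.74), Stk16 (0.74), the liver phosphofructokinase Pfkl (0.73) and H4c2 (0.72), and farthest from Nck1 (-0.84), Ccdc82 (-0.82) and Timm10 (-0.80). Pgk1 lay nearest Ero1a (0.83, adjusted p = 0.0697), Tnfsf14 (0.79), Slfn2 (0.79), Slc30a7 (0.79) and Acadl (0.78), with Sipa1l3 (-0.83), Sp3 (-0.82) and Cubn (-0.76) at the other end. Tnfsf14 was dim, at 4.36 to 6.31. Leaving out sulindac Mouse_125 gave Pgk1 34 passing probe sets.

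Pfkfb3 lay nearest the small GTPase Rhog (0.87, adjusted p = 0.0578), Pla2g2e (0.83), Plek, a protein of leukocytes and platelets (0.81), the complement receptor C5ar1 (0.80) and Litaf (0.80), and farthest from Ceacam9 (-0.84), Wee1 (-0.74) and Crebzf (-0.73). Ceacam9 was dim, at 3.79 to 4.66, below the array medians in every tumour. Bnip3 lay nearest Tecr (0.82, adjusted p = 0.0897), Mgrn1 (0.81), Glmp (0.80), Usp20 (0.80) and its own paralog Bnip3l (0.79, adjusted p = 0.0936), and farthest from Gmds (-0.77), Cnnm4 (-0.76) and Rinl (-0.74). Without control Mouse_30, 266 probe sets passed for Bnip3.

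**Figure D4:**
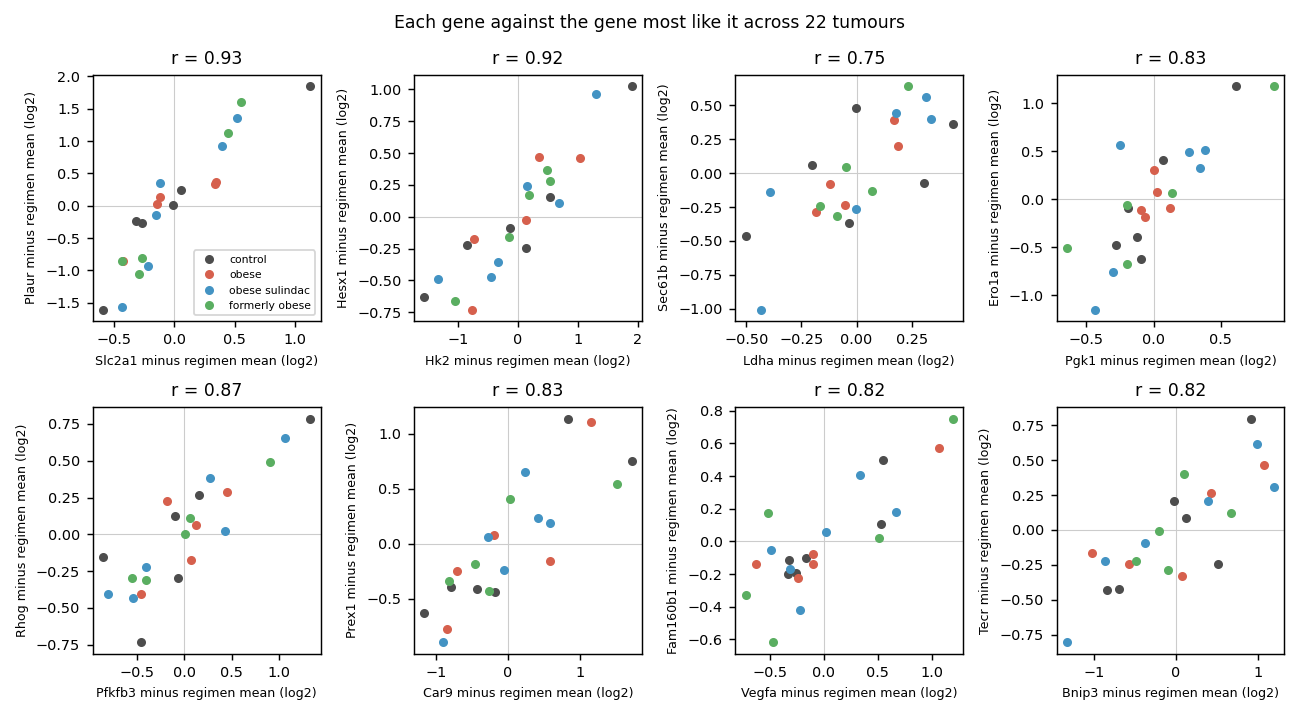
Each of the 8 genes (x axis) against the gene with the highest r with it (y axis), both as log2 level minus the mean of the regimen, in 22 tumours coloured by regimen. Slc2a1 with Plaur (r = 0.93) and Hk2 with Hesx1 (r = 0.92) lie closest to a line, and Ldha with Sec61b (r = 0.75) spreads most. Hesx1 is dim, at 4.06 to 5.95.

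Lists of cell type markers were set against each member in the same way, in 96 relations adjusted together by the Benjamini-Hochberg method. Pgk1 followed the mean of 5 macrophage and monocyte markers (r = 0.82, rho = 0.77, permutation p = 0.00013, adjusted p = 0.0125), with 5 of 5 markers positive and r = 0.67 without the 2 farthest tumours. Hk2 followed the epithelial markers (0.70, rho 0.71, permutation p = 0.0012, 9 of 9 positive), absorptive colonocytes (0.63, rho 0.60, permutation p = 0.00213, 7 of 7) and T cells (0.67, rho 0.61, permutation p = 0.00258, 4 of 4), each with an adjusted p of 0.0434. Krt20, a keratin of mature surface colonocytes, passed with Hk2 in the fit over all probe sets (0.83, limma adjusted p = 0.00102), and so did Krt8 (0.69, limma adjusted p = 0.0299). Car9 also followed the epithelial markers (0.68, rho 0.72, permutation p = 0.00271, adjusted p = 0.0434, 8 of 9 positive), and Lgals4 passed with it (0.72, limma adjusted p = 0.0467). Bnip3 went the other way (-0.68, rho -0.70, permutation p = 0.00203, adjusted p = 0.0434, 1 of 9 positive).

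Other relations missed the threshold. Pfkfb3 had r = 0.64 with neutrophil markers (rho 0.59, permutation p = 0.00428, adjusted p = 0.0571, 6 of 6 positive), which became 0.46 without the 2 farthest tumours. Hk2 had 0.60 with macrophage and monocyte markers (rho 0.63, permutation p = 0.00534, adjusted p = 0.0571, 5 of 5 positive), which became 0.51. For Car9, too, 5 of 5 macrophage and monocyte markers had a positive r, with a median of 0.59. Vegfa had 0.57 with endothelial markers (rho 0.48, permutation p = 0.0163, adjusted p = 0.104, 8 of 8 positive), which became 0.30, and -0.56 with T cell markers (rho -0.52, permutation p = 0.00887, adjusted p = 0.0655). Its highest gene in the VEGF axis was the receptor Flt1 (0.72, limma adjusted p = 0.109). The epithelial list mean lay between 13.85 and 15.43 in control, 13.55 and 14.85 in obese, 13.88 and 14.99 in sulindac and 14.32 and 15.24 in formerly obese tumours, and no marker can be called absent on this scale. The macrophage list mean lay between 9.70 and 11.35 in sulindac and between 9.84 and 11.74 in formerly obese tumours. The part of these cell types in the correlations between members and in the sets of genes near Hk2, Car9 and Bnip3 was not tested.

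**Figure D5:**
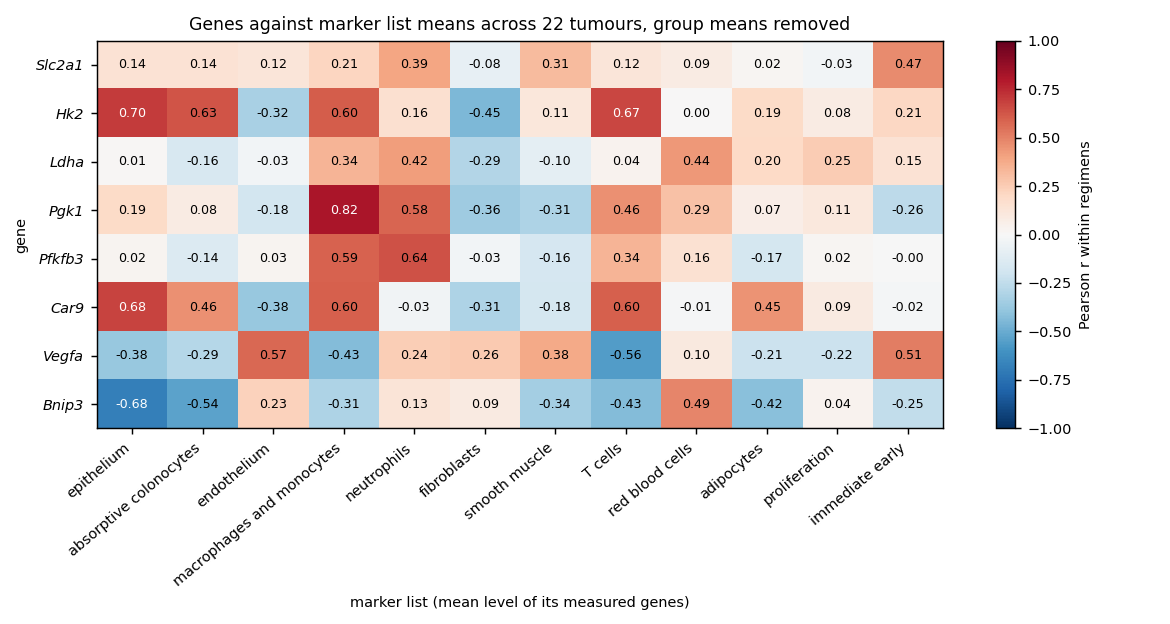
Pearson r of each of the 8 genes with the mean level of each marker list over 22 tumours after removal of the regimen means (colour scale from -1 to 1). Pgk1 with macrophages and monocytes is the highest at 0.82, and the epithelial column runs from 0.70 for Hk2 to -0.68 for Bnip3.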

How the data were processed

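RNA from 22 tumours was measured on Clariom S arrays, 1 array per tumour, and grouped by the diet and sulindac labels. RNA was extracted with TRIzol, per the labels, and Transcriptome Analysis Console 4.0 was used, per the submitters' processing notes. The deposited values are log2 levels of 22203 probe sets with 2 decimals. Base 2 was read from their range (3.34 to 19.49), and how probes were background-corrected, normalized and summarized is not given in the sources used here. Array medians lay close together, at 6.67 to 6.83, so levels may be relative to their array, which the sources do not state. Gene names came from the platform annotation: 19572 probe sets had 1 symbol, 0 several and 2631 none. The number of arrays limits the precision.

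A mean per group was fitted to all probe sets in R 4.3.3 with limma 3.58.1 (lmFit, eBayes, two-sided, Benjamini-Hochberg over 22203 probe sets, threshold 0.05), with no filter. Errors after ± are standard errors for differences and SDs for means, and intervals are 95% intervals. For each member the other 22202 probe sets were fitted on group means plus the member's level. Correlations used levels minus group means, with 100000 permutations within groups. The fits were tested on simulated data. Promoter letters were counted on both strands of the RefSeq windows of GRCm38.p6 with Python 3.11.15.

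Alternatives were only the compared groups, a common median, quantile normalization, a filter on dim probe sets, a variance trend, array weights, exact permutation tests, ranks, no group means, each mouse left out and, added after seeing the data, ordinary linear models without moderation of variances. Named genes were the 8 members, the 3 genes with the smallest unadjusted p of each pathway list in each main comparison (of which the text prints some), a fixed set of 18, and for each member the 5 genes with the highest and the 3 with the lowest r. Genes printed from a list's association with a member are those that passed or the list's highest, chosen after their values were seen. Predicted genes, Riken clones and olfactory receptors were not named. The members and lists were chosen with earlier results of these data known.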

Additional observations from a re-analysis of the deposited data

Results flagged for a closer look

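Each member was checked in each regimen for a tumour far from the rest, 32 checks in all, where chance marks about 1 in 20. A single case was marked, no more than that rate gives by chance, and it passed the critical value only narrowly. Slc2a1 in control Mouse_30 was at 15.74, 1.07 above the next control tumour at 14.67, a gap of 0.626 of the whole range of the group against a critical value of 0.625. The same tumour was the highest control tumour for 5 of the 8 genes. Without it, Slc2a1 was 0.40 higher in obese than in control tumours (0.18 with it).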

How the results depend on the processing

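No paired analysis was possible because no mouse numbers are shared between groups. Over all settings, 48 member differences gave 912 values, the smallest adjusted p was 0.421, and 0 passed. The number of members called, 0 in each comparison and each association fit, did not change under any alternative run, the exact permutation tests (unadjusted) included. The mean of all probe sets of a gene equals the main value, since each member has 1. Array weights turned Bnip3 in formerly obese against obese (0.062), Car9 in obese against control (0.10) and in sulindac against control (0.0041), Ldha in formerly obese against sulindac (-0.00060) and Pgk1 in obese against control (-0.0047). A common median turned Pgk1 in obese against control (-0.011). Leaving out single mice turned these differences, given as their lowest and highest values. In obese against control tumours Car9 from -0.39 to 0.24, Ldha from -0.032 to 0.16, Pgk1 from -0.038 to 0.14 and Vegfa from -0.039 to 0.39. In formerly obese against obese tumours Bnip3 from -0.43 to 0.095, Car9 from -0.003 to 0.67, Pgk1 from -0.29 to 0.091 and Vegfa from -0.52 to 0.051. In sulindac against obese tumours Car9 from -0.28 to 0.22, Hk2 from -0.31 to 0.22, Pfkfb3 from -0.11 to 0.27 and Slc2a1 from -0.16 to 0.031. In formerly obese against control tumours Car9 from -0.10 to 0.62, Ldha from -0.16 to 0.032, Pgk1 from -0.28 to 0.11 and Vegfa from -0.29 to 0.19. In sulindac against control tumours Car9 from -0.41 to 0.17. In formerly obese against sulindac tumours Ldha from -0.032 to 0.12 and Pgk1 from -0.038 to 0.35.
The counts of probe sets associated with a member moved more. Ranks gave 0 for Slc2a1, Hk2, Car9 and Vegfa, and 0 of the 26 named genes that had passed. Here limma's prior degrees of freedom were infinite (3.32 to 3.59 on levels), so each probe set received a common variance in place of its own, and the r of the 26 kept its sign, with sizes from 0.66 to 0.94 and 11 at least as large as on levels. An ordinary linear model, added after seeing the data, gave 232 for Hk2, 367 for Car9, 17 for Vegfa and 1 each for Slc2a1, Pgk1 and Pfkfb3 on ranks, and 21 of the 26 passed. On levels it gave 372 for Hk2, 22 for Car9, 14 for Vegfa and 1 each for Slc2a1 and Pfkfb3, and 22 of the 26 passed. Without group means the counts were 5 for Slc2a1, 6 for Pfkfb3, 287 for Car9 and 32 for Vegfa. Without dim probe sets they were 412 for Car9 and 2 for Pfkfb3. A common median gave 4 for Pfkfb3, and quantile normalization gave 3 for Pfkfb3 and 3 for Pgk1. With single mice left out they ran from 1 to 4 for Slc2a1, 173 to 812 for Hk2, 0 to 34 for Pgk1, 0 to 5 for Pfkfb3, 17 to 402 for Car9, 12 to 63 for Vegfa and 0 to 266 for Bnip3. Of the 26 named genes, 16 passed without each mouse in turn, and 10 did not in at least 1 case.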
